A study of Rattus norvegicus with 17 samples.

Results

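Expression of 10 neuronal cell adhesion molecules was followed in rat spinal cord neurons collected by laser capture. The genes were L1cam, Chl1, Nrcam, Nfasc, Ncam1, Ncam2, Cntn1, Cntn2, Cdh2 and Alcam, and every probe set annotated with one of them as its single gene symbol was taken. That gave 20 of the 31099 probe sets on the array. Of the 20, 16 passed a filter on low signal and were tested, each of the 10 genes keeping 1 or more, and 4 were dim. Regenerating neurons and non-regenerating neurons came from 7 axotomised rats that gave both groups, so the 2 were compared within animals. Of those rats, MOON265 and MOON266 carry one name prefix and MM11, MM13, MM14, MM16 and MM17 the other. Traced neurons were labelled from their axons like the others but were not axotomised, and they were collected from a further 3 rats (MM15, MM18 and MM19). Each of the 17 arrays held RNA of 1000 retrogradely labelled neurons from 10 µm cryosections, amplified in 3 rounds. The title of the traced MM15 sample adds that it is a high yield replicate. Strain, age, sex, the injury and the time after it are not given in the sources used here.

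Cell adhesion molecules sit in the neuronal membrane and hold axons to each other, to glia and to the matrix, and many also signal when a growth cone meets its substrate. The L1 family (L1cam, Chl1, Nrcam and Nfasc) and the NCAM proteins belong to the immunoglobulin superfamily. L1 family proteins bind ankyrins, which tie them to the spectrin skeleton under the membrane, and contactins are anchored to the outer leaflet by a lipid and often act with L1 family proteins in cis. Classical cadherins such as Cdh2 bind in the presence of calcium and are coupled to actin through catenins.

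The deposited signals were on a linear scale, with a mean near 200 on every array after the lowest and highest 2% were left out. MOON rats had a lower median signal per array, 32.8 to 39.0, than MM rats, at 45.2 to 76.9. All traced rats were MM rats, and what the prefix stands for is not given in the sources used here. Non-regenerating MM17 and traced MM15 stood apart: their signals correlated with the other arrays at a median r of 0.847 and 0.821, against 0.905 to 0.949 for the 15 others. Snap25, Stmn2 and the other 6 of 8 neuron markers all passed the filter in these neurons. A difference in signal can come from fewer cells of a type or from less RNA per cell, and these cannot be told apart in pooled neurons.

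None of the 16 adhesion probe sets passed the test in any of the 3 comparisons. For 2 of the 16, L1cam and Ncam2, all signals in regenerating neurons lay below those in traced neurons. That share is near the 11.7% of all probe sets that did not overlap between these groups in either direction. L1cam averaged 425 ± 140 in regenerating and 502 ± 348 in non-regenerating neurons, against 902 ± 302 in traced neurons (signal, SD, n = 7, 7 and 3). Ncam2 averaged 121 ± 31.1 in regenerating and 149 ± 40.3 in non-regenerating neurons, against 212 ± 11.7 in traced neurons. Between regenerating and non-regenerating neurons of the same rat, the largest estimate for any of the 16 was a log2 difference of -0.40. That was Ncam1 1368320_at, with low signals of 7.9 to 87.5, and the brighter Ncam1 1379389_at differed by -0.01. The plot of signal by array shows all 16 probe sets.

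**Figure D1:**
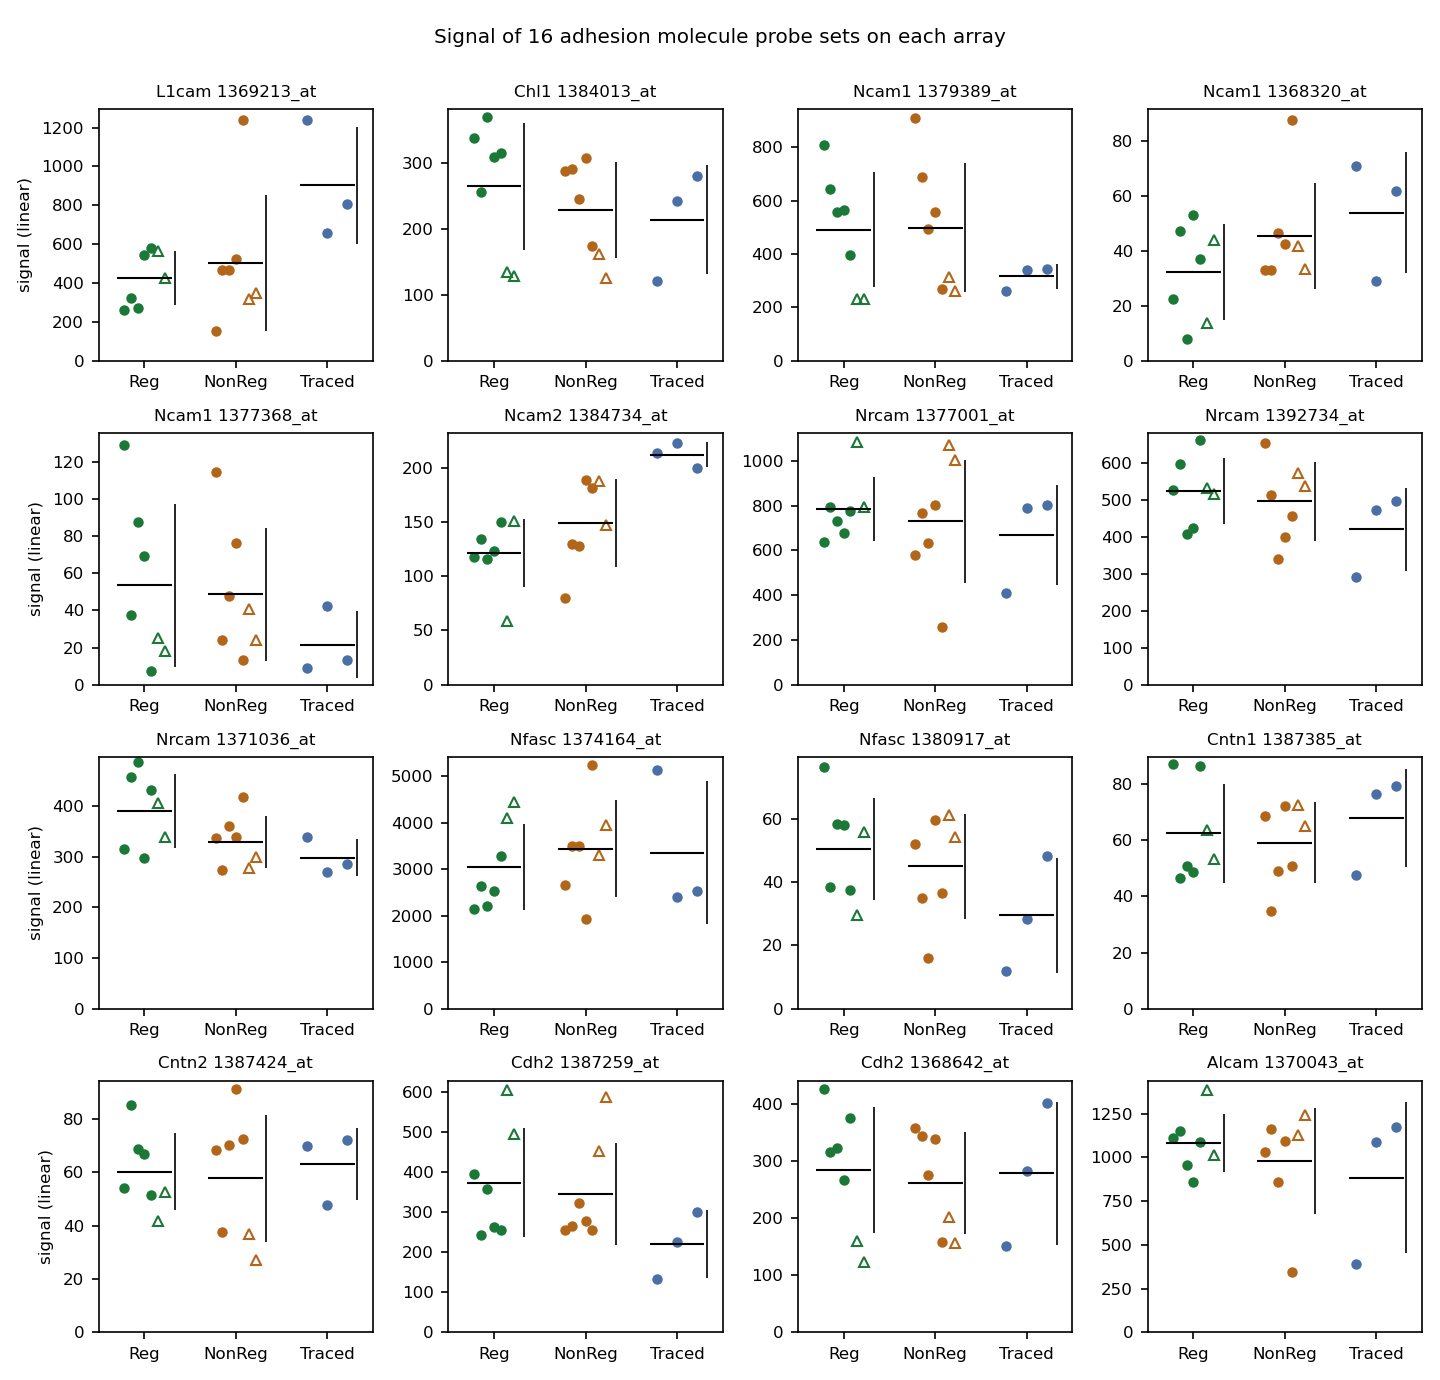
Signal (linear scale) of the 16 tested adhesion molecule probe sets on each array, one panel per probe set, for regenerating (Reg), non-regenerating (NonReg) and traced neurons. Filled circles are MM rats and open triangles MOON rats, horizontal lines are group means and vertical lines span 1 SD on either side. For Ncam2 the 3 traced samples, at 199.7 to 222.9, lie above all 14 axotomised samples, and for L1cam they lie above all 7 regenerating samples.

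Regenerating neurons were compared with non-regenerating neurons of the same animal with limma, with the animal as a block and p-values adjusted over 18625 probe sets. Of the 16 adhesion probe sets, 11 were higher and 5 lower in regenerating neurons, with a median log2 difference of 0.08, beside a median of -0.00087 over all tested probe sets. The differences ran from -0.40 to 0.23, and 0 passed an adjusted p under 0.05 (adjusted p = 0.718 to 0.991). At an unadjusted p under 0.05 the count was also 0. Over all probe sets, 0.0161% passed the adjusted and 7.08% the unadjusted threshold. The 95% intervals of the 16 differences reached from -0.88 to 0.61, so a change of more than 1.84-fold in signal plus 16 lay outside each of them. The lower end was that of Ncam1 1368320_at, at 7.9 to 87.5 over all arrays, where the change in signal itself can be larger. No probe set moved the same way in all 7 animals, which 2.09% of all probe sets did, and the most animals that agreed for any of the 16 were 5 of 7.

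The direction changed from animal to animal, as the map of within-animal differences shows. L1cam was higher in regenerating neurons in 4 rats and lower in 3, from -1.07 in MM17 to 0.79 in MOON265 (log2). Alcam differed by 1.60 in MM17 and by -0.34 to 0.30 in the other 6 rats. Nrcam 1377001_at differed by 1.54 in MM17 and by -0.33 to 0.20 in the others. Both values rest on the array of non-regenerating MM17, which stood apart. The number of adhesion probe sets that were higher in regenerating neurons was 6 of 16 in MM16 and 11 of 16 in MM14, with medians of -0.10 and 0.17.

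**Figure D2:**
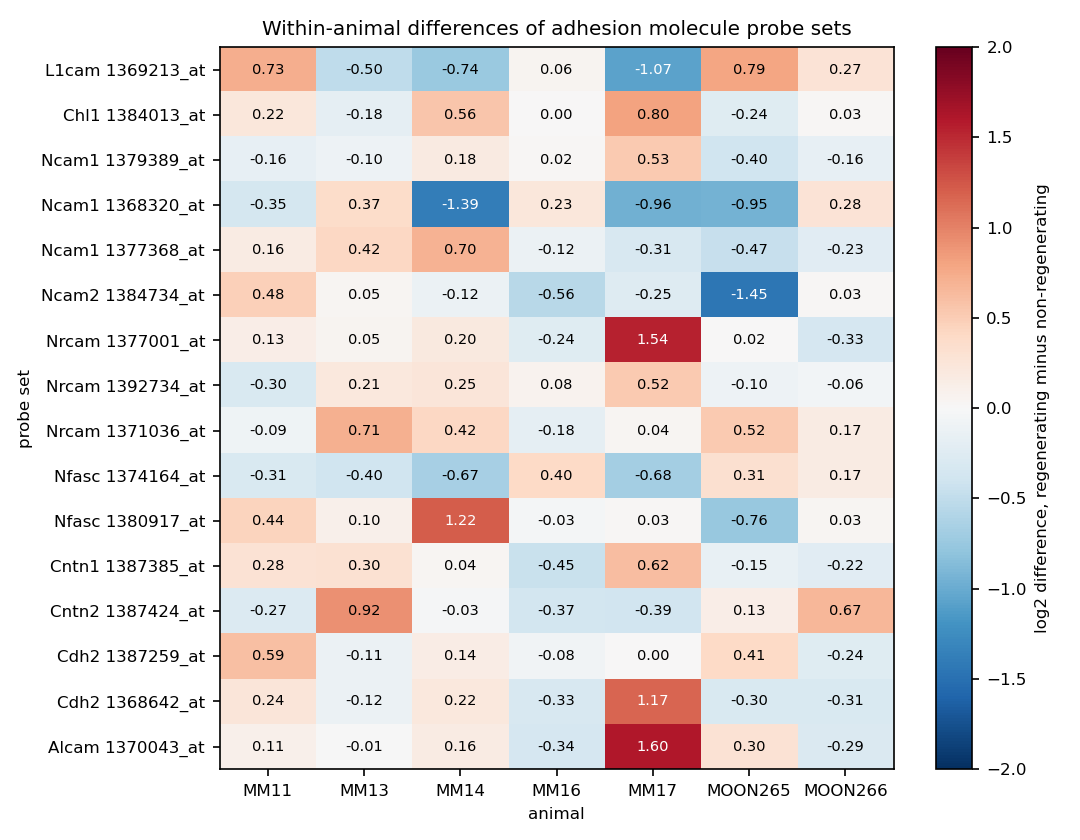
Within-animal difference, regenerating minus non-regenerating (log2 of signal plus 16), for each of the 16 adhesion probe sets (lines) in each of the 7 animals (columns). Red is higher and blue lower in regenerating neurons. No line holds 1 colour throughout, and MM17 holds the highest differences of Alcam (1.60) and Nrcam (1.54).

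The MM and MOON rats were compared in this within-animal difference by an interaction term. L1cam differed by -0.30 in the 5 MM rats and by 0.53 in the 2 MOON rats, a difference between prefixes of 0.84 (SE 0.41, limma adjusted p = 0.912). Of the 16 probe sets 0 passed, also at an unadjusted p under 0.05, where 0.00537% of all probe sets passed the adjusted and 5.11% the unadjusted threshold. Motor neuron markers were compared in the same pairs, and 6 of 7 had higher values in regenerating neurons (median log2 difference 1.15, and 6 with an unadjusted p under 0.05). Their summed signal was 1273 to 5579 in regenerating and 713.1 to 1567 in non-regenerating neurons, and Calca was the 1 that passed (limma adjusted p = 0.0314). What part this marker difference has in the adhesion values was not tested.

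Axotomised neurons were then set against the traced ones between animals. Both comparisons share the same 3 traced arrays, so they are not independent. Regenerating against traced, 10 adhesion probe sets were higher and 6 lower, with a median log2 difference of 0.27 and a range of -1.07 to 0.74. Non-regenerating against traced, the counts were again 10 and 6, with a median of 0.09 and a range of -1.01 to 0.72. The median over all tested probe sets was -0.12 in each comparison. Centring each array on its median signal moved it to 0.26 for regenerating and 0.24 for non-regenerating neurons, so every direction against traced neurons is relative to the scaling. By limma, 0 of 16 passed for regenerating neurons (adjusted p = 0.0713 to 0.979), where 0.215% of all probe sets did. Also 0 of 16 passed for non-regenerating neurons (limma adjusted p = 0.472 to 0.957), where 0.043% of all did. The 95% intervals reached from -1.73 to 1.80 for regenerating and from -1.96 to 1.67 for non-regenerating against traced neurons. At this number of arrays, changes of up to 3.47-fold and 3.89-fold in signal plus 16 lay within the interval of 1 or more probe sets. The upper ends, 1.80 and 1.67, were those of Ncam1 1377368_at, at 7.5 to 129.3 over all arrays, where the change in signal itself can be larger. At an unadjusted p under 0.05, 3 adhesion probe sets passed for regenerating neurons, or 18.8%, beside 23.6% of all probe sets. For non-regenerating neurons 1 passed, or 6.25%, beside 10.3% of all.

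**Figure D3:**
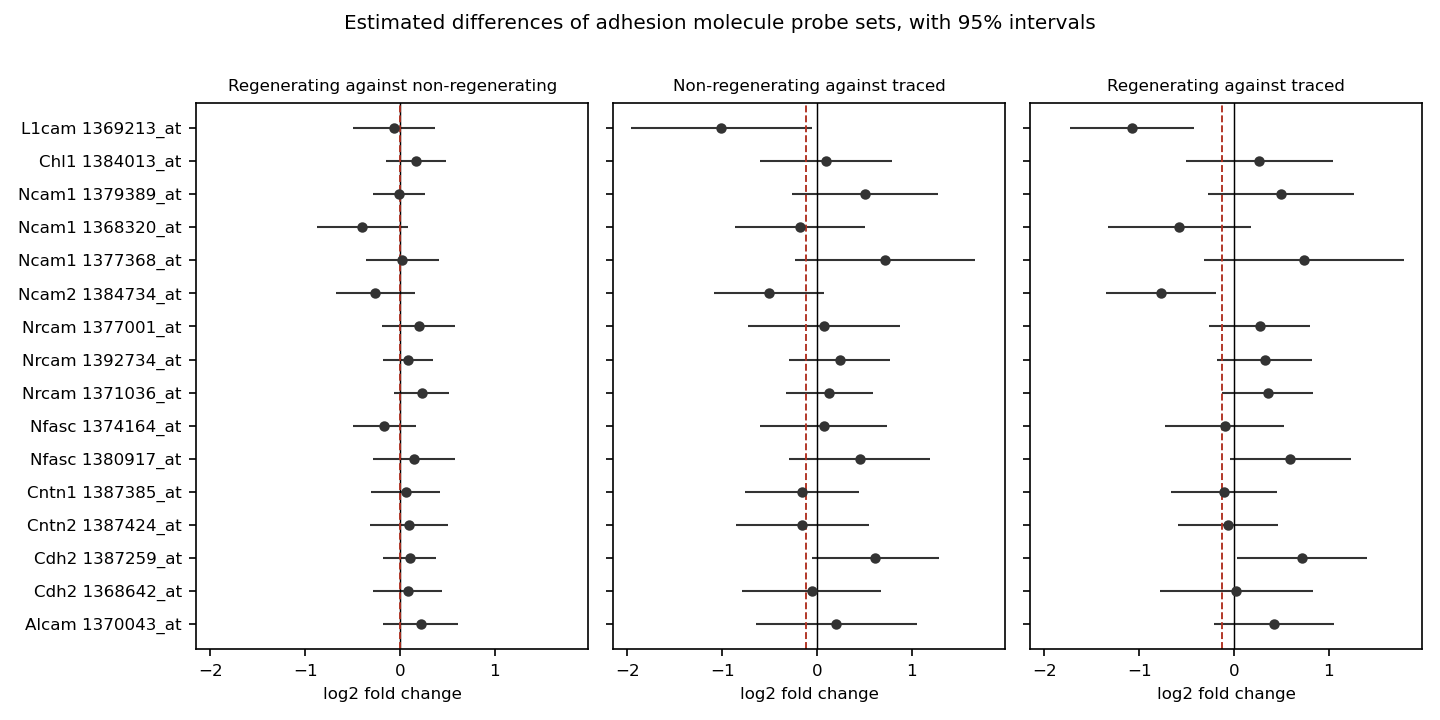
Log2 fold change (points) with its 95% interval (lines) for the 16 adhesion probe sets in the 3 comparisons. The solid line marks no difference and the dashed red line the median of all tested probe sets. Between regenerating and non-regenerating neurons all 16 intervals cross 0, and against traced neurons those of L1cam (both), Ncam2 and Cdh2 1387259_at (regenerating) do not.

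L1cam, the founding member of the L1 family and a promoter of neurite growth on other axons and Schwann cells, was measured by 1369213_at. Its signal was 262.6 at the lowest, 423.9 at the median and 581.5 at the highest in regenerating neurons. In non-regenerating neurons the lowest was 152.1, the median 464.8 and the highest 1240.3. Traced MM15, MM18 and MM19 had 1239.9, 658.5 and 808.3. All regenerating samples were below all traced samples, and of the non-regenerating ones only MM17 reached the traced range. Regenerating neurons were 1.07 lower on the log2 scale (SE 0.30, 95% interval -1.73 to -0.42, limma adjusted p = 0.0713), or 2.11-fold. A two-sided exact permutation test of this gene alone gave p = 0.0167, unadjusted. A small p in this test follows largely from the groups not overlapping, so it is no further evidence. Among all probe sets, 9.36% had every regenerating sample below every traced one.

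Non-regenerating neurons were 1.01 lower in L1cam (SE 0.44, limma adjusted p = 0.472, exact permutation p = 0.117, unadjusted). Without non-regenerating MM17 the value was -1.26 (SE 0.34, limma adjusted p = 0.087). The groups then did not overlap, which was fixed in advance because only MM17 had reached the traced range. Between regenerating and non-regenerating neurons L1cam differed by -0.07 (SE 0.20). Within the MM rats alone the differences from traced neurons were -1.18 for regenerating and -0.88 for non-regenerating neurons. Leaving out regenerating MM17, which had the highest regenerating signal, took regenerating against traced neurons past the threshold (-1.16, limma adjusted p = 0.0407). Weighting the arrays by their quality did so too (-0.96, limma adjusted p = 0.0101). Calls over all 18625 probe sets rose from 40 to 1504 and 3131 in these fits, so the change was not particular to L1cam. With the ratio of 3 prime to 5 prime Gapdh signal as a covariate the value was -1.07 and its limma adjusted p 0.932. Without traced MM15, which had the highest traced signal, it was -0.82 (limma adjusted p = 0.398). In each of these fits the calls over all probe sets fell from 40 to 1, so this loss too was not particular to L1cam.

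Microglia and macrophage, astrocyte, motor neuron and neuron markers were also compared between regenerating and traced neurons. The other glial lists are given at the end. All 7 tested microglia and macrophage markers were higher in regenerating than in traced neurons (median 1.54, 3 passing) and in non-regenerating than in traced neurons (median 1.39, 1 passing). Their summed signal was 3364 to 6592 in regenerating, 3448 to 5890 in non-regenerating and 1874 to 2143 in traced neurons, with Itgam, C1qb and Tyrobp dim. The 8 astrocyte markers summed to 13477 to 20495 in regenerating, 12591 to 19889 in non-regenerating and 11755 to 12504 in traced neurons. Regenerating against traced, 7 of the 8 were higher (median 0.47), and Gfap passed (1.33, SE 0.22, limma adjusted p = 0.026). Of the motor neuron markers 6 of 7 were higher (median 1.21, 0 passing), and their sum in traced neurons was 921.4 to 1254. At an unadjusted p under 0.05, 5 of them were higher and 1 lower, where 5.98% of all probe sets were higher and 17.6% lower. Of 8 neuron markers, 1 was higher in regenerating than in traced neurons, and the median was -0.23. None of these markers had a signal of 0 on any array, and their part in the L1cam difference was not tested.

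Chl1, the close homologue of L1, which promotes neurite outgrowth, showed no such separation at 1384013_at. It ranged from 129.0 to 369.8 in regenerating, from 126.5 to 308.3 in non-regenerating and from 121.2 to 280.1 in traced neurons. The differences were 0.17 (SE 0.15) for regenerating against non-regenerating, 0.10 (SE 0.32) for non-regenerating against traced and 0.27 (SE 0.36) for regenerating against traced neurons. Low values were found in every group. The 4 axotomised MOON samples had 126.5 to 162.5, below the 174.8 to 369.8 of the 10 axotomised MM samples, and 19.9% of all probe sets separated the prefixes without overlap.

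Nrcam, which helps to cluster sodium channels at nodes of Ranvier and guides axons, was measured by 3 probe sets. 1377001_at averaged 785 ± 145 in regenerating, 730 ± 275 in non-regenerating and 668 ± 224 in traced neurons (signal, SD). The lowest values of that probe set were those of non-regenerating MM17 (256.1) and traced MM15 (409.6). 1371036_at averaged 391 ± 73.5 in regenerating, 330 ± 51.2 in non-regenerating and 298 ± 36.7 in traced neurons. It was 0.23 higher in regenerating than in non-regenerating neurons (SE 0.14, limma adjusted p = 0.725), in 5 of 7 animals, and 0.36 higher than in traced neurons (SE 0.22, limma adjusted p = 0.358). 1392734_at differed by 0.09, 0.24 and 0.32 in regenerating against non-regenerating, non-regenerating against traced and regenerating against traced neurons (SE 0.13, 0.25 and 0.23). Pairs of these probe sets agreed in direction within 4 or 5 of 7 animals.

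Nfasc, neurofascin, which organises the axon initial segment and the node, had 5 probe sets, of which 2 were tested. 1374164_at was bright, at 2150 to 4450 in regenerating, 1927 to 5249 in non-regenerating and 2403 to 5145 in traced neurons. The highest values were again those of non-regenerating MM17 (5249.2) and traced MM15 (5144.7). The log2 differences were -0.17 within animals (SE 0.16), and 0.07 for non-regenerating (SE 0.31) and -0.10 for regenerating (SE 0.29) against traced neurons. 1380917_at, at 12.0 to 76.3 over all arrays, differed by 0.15 within animals (SE 0.21), and by 0.45 for non-regenerating (SE 0.35) and 0.59 for regenerating (SE 0.30) against traced neurons. The 2 probe sets agreed in direction within 1 of 7 animals. The 3 dim ones reached at most 82.7 (1388041_s_at), 130.2 (1370877_at, traced) and 29.6 (1393181_at).

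Ncam1, the main carrier of polysialic acid, gave 3 probe sets that did not all agree. Against traced neurons 1379389_at and 1377368_at were higher and 1368320_at was lower. 1379389_at had 231.1 to 809.6 in regenerating, 259.7 to 908.7 in non-regenerating and 263.1 to 344.6 in traced neurons. It differed by -0.01 (SE 0.13) within animals, and by 0.50 (SE 0.36) for non-regenerating and 0.49 (SE 0.36) for regenerating against traced neurons. The 4 MOON samples had 231.1 to 312.5 and 9 of the 10 axotomised MM samples more than that. All traced rats were MM rats. Over all rats both axotomised groups overlapped the traced one (limma adjusted p = 0.444 for regenerating and 0.569 for non-regenerating neurons). Among MM rats the regenerating samples had 396.2 to 809.6 and the non-regenerating samples 269.8 to 908.7. How many of all probe sets separate regenerating from traced samples among MM rats was not counted, so no result is drawn from this subset. 1377368_at, at 7.5 to 129.3 over all arrays, was higher than in traced neurons by 0.74 in regenerating (SE 0.49) and 0.72 in non-regenerating neurons (SE 0.44). 1368320_at, at 7.9 to 87.5, was lower by 0.58 (SE 0.35) and 0.18 (SE 0.32). Each pair of the 3 agreed in direction within 3 of 7 animals. The polysialyltransferases St8sia2 and St8sia4 were dim and were not tested.

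Ncam2, the second NCAM gene, known from olfactory axons as OCAM, had lower signals in both axotomised groups than in traced neurons. At 1384734_at the lowest, median and highest signals were 58.7, 123.2 and 150.7 in regenerating neurons. They were 79.8, 147.5 and 188.7 in non-regenerating neurons. Traced MM15, MM18 and MM19 had 213.2, 222.9 and 199.7. Every axotomised sample was below every traced sample. Among all probe sets, 9.36% had every regenerating sample below every traced one, and the share below in both axotomised groups at once was not counted. Regenerating neurons were 0.77 lower on the log2 scale (SE 0.27, 95% interval -1.35 to -0.19, limma adjusted p = 0.112), or 1.70-fold. The exact permutation test of this gene alone gave p = 0.00833, unadjusted, which is the smallest that 7 against 3 samples allow. That p follows largely from the groups not overlapping and is no further evidence. Non-regenerating neurons were 0.51 lower (SE 0.27, limma adjusted p = 0.478, exact permutation p = 0.0333, unadjusted), and 2.56% of all probe sets did not overlap here, with 1.47% lower. Centring each array on its median reduced these differences to -0.38 and -0.15.

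Ncam2 was also the adhesion gene with a low regenerating sample of its own. MOON265 had 58.7, against 116.0 to 150.7 in the other 6 regenerating samples. Within animals regenerating neurons were 0.26 lower (SE 0.20, limma adjusted p = 0.763), in 4 of 7 animals, and without MOON265 the value was -0.06. Against traced neurons the value without regenerating MOON265 was -0.63 (SE 0.22). Within the MM rats alone Ncam2 was 0.67 lower in regenerating and 0.58 lower in non-regenerating than in traced neurons.

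**Figure D4:**
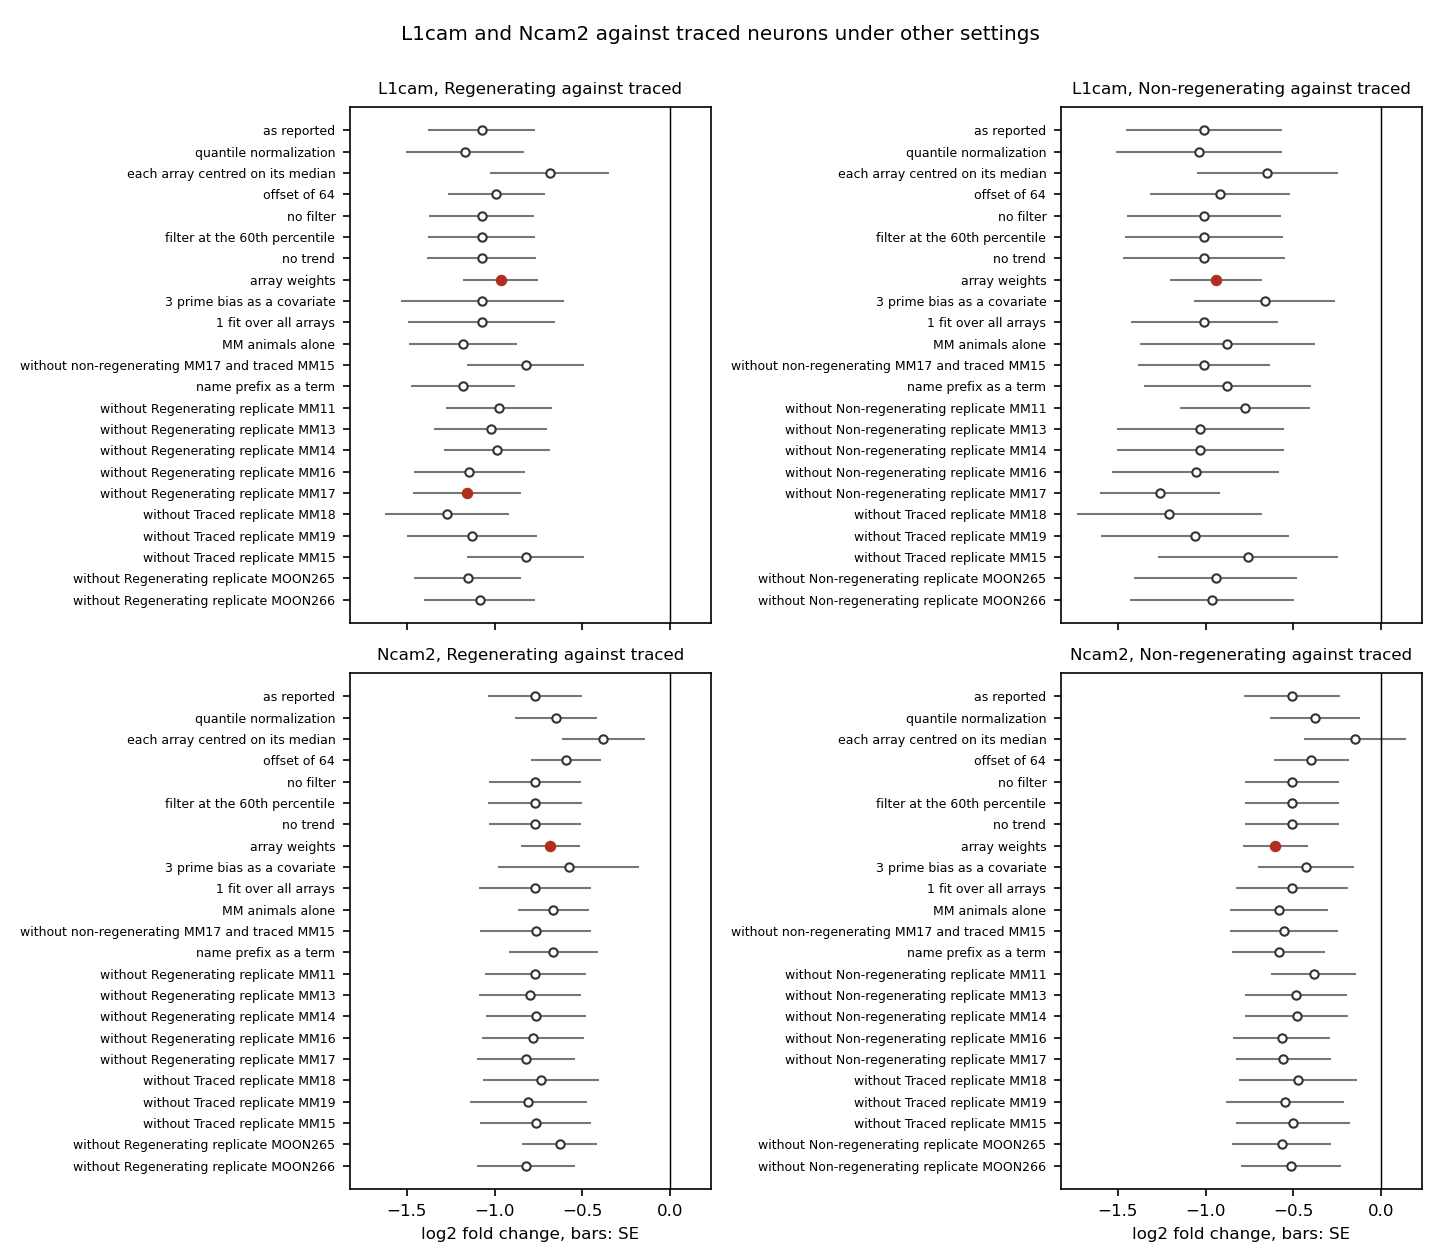
Log2 fold change (points) with SE (lines) of L1cam and Ncam2 for regenerating and non-regenerating against traced neurons, under each setting of the processing and without each array in turn. Filled red points passed an adjusted p under 0.05. All values are below 0, from -1.27 to -0.69 for L1cam and -0.82 to -0.38 for Ncam2 in regenerating neurons.

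The contactins overlapped in all groups. Cntn1, which pairs with Caspr at the paranodes, had 46.6 to 87.2 in regenerating, 34.7 to 72.7 in non-regenerating and 47.8 to 79.3 in traced neurons (1387385_at). Cntn2, also called TAG-1, which is known from developing commissural axons and the juxtaparanodes, had 41.8 to 85.0, 27.1 to 91.0 and 47.5 to 71.9 in the same groups (1387424_at). The 6 log2 differences of both genes lay between -0.16 and 0.09. Against traced neurons the sign of both depended on the scaling: Cntn1 was -0.10 and Cntn2 -0.06 in regenerating neurons as deposited, and centring the arrays on their medians gave 0.29 and 0.33.

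Cdh2, N-cadherin, had 2 bright probe sets that agreed in direction within 6 of 7 animals, with differences of 0.10 (SE 0.13) for 1387259_at and 0.08 (SE 0.17) for 1368642_at between regenerating and non-regenerating neurons. 1387259_at had 244.8 to 605.9 in regenerating, 255.2 to 589.2 in non-regenerating and 132.8 to 302.0 in traced neurons. It was 0.72 higher in regenerating than in traced neurons (SE 0.32, limma adjusted p = 0.193, exact permutation p = 0.0917, unadjusted). In non-regenerating neurons it was 0.62 higher than in traced neurons (SE 0.31, limma adjusted p = 0.473, exact permutation p = 0.125, unadjusted). In the same 2 comparisons 1368642_at differed by 0.02 and -0.06 (SE 0.38 and 0.34). Between the name prefixes the 2 probe sets differed in opposite directions, with some overlap at 1368642_at. At 1387259_at the 4 axotomised MOON samples had 453.5 to 605.9 and the 10 axotomised MM samples 244.8 to 396.7, while at 1368642_at they had 122.6 to 201.7 and 158.2 to 426.0. Within the MM rats alone, 1387259_at was higher than in traced neurons by 0.48 in regenerating (SE 0.27) and by 0.37 in non-regenerating neurons (SE 0.26). The dim 1378271_at reached at most 28.2.

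Alcam, also called CD166, which takes part in axon bundling, was measured by 1370043_at. Signals were 859.8 to 1386.2 in regenerating neurons, 347.6 to 1244.3 in non-regenerating neurons, and 392.0, 1089.7 and 1172.3 in traced MM15, MM18 and MM19. Non-regenerating MM17 and traced MM15 held the 2 lowest values, and the other 15 arrays had 856.9 or more. The differences were 0.22 within animals (SE 0.19), 0.20 for non-regenerating (SE 0.40) and 0.42 for regenerating against traced neurons (SE 0.30). Without these 2 arrays the first and the last were -0.01 and -0.08.

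The pattern of each member over the arrays was set beside those of all other named genes, after the mean of each name prefix was removed. L1cam was most like Sgtb (r = 0.97 over 17 arrays) and Rab27b (r = 0.967), and the values were 0.947 and 0.941 over the 15 arrays without the 2 that stood apart. Nfasc 1374164_at was most like Stmn2 (r = 0.987, and 0.963 over 15 arrays), and Ncam1 1379389_at most like Fam20c (0.954 and 0.926). Ncam2 was most like Rasgef1a (0.884 and 0.916). Alcam was most like Dnaja2 and Ik, with 0.964 and 0.961 over 17 arrays and 0.747 and 0.573 over 15, and Nrcam 1377001_at most like Ermp1 (0.944 and 0.683). Chl1 went most with Tma16 (0.945 and 0.843), Cdh2 1387259_at with Tada1 (0.878 and 0.722), Cntn1 with Arhgef26 (0.851 and 0.849) and Cntn2 with Dnajc11 (0.825 and 0.847). The arrays share their scaling and amplification, and arrays of 1 rat share the animal, so these values describe likeness over these samples only.

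Other adhesion genes and partners of the members were taken from a list of 60, of which 55 were on the array and 48 were tested. By limma 0 of the 48 passed in any comparison. Regenerating against non-regenerating, 17 were higher and 31 lower (median -0.05). At an unadjusted p under 0.05, 7.08% of all probe sets passed, and 1 of the 48 did. That was Ptprf, a receptor tyrosine phosphatase also known as LAR, at 0.28 (SE 0.12, adjusted p = 0.681). Next were Cadm1, a synaptic adhesion molecule, at -0.38, Nptn, neuroplastin, at -0.30, and the cadherin Cdh8 at -0.30.

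Regenerating against traced, 18 partners were higher and 30 lower (median -0.12), with 1 higher and 8 lower at an unadjusted p under 0.05, where 5.98% of all probe sets were higher and 17.6% lower. The 4 partners with the smallest p were Cntn4, Ank1, Cntn3 and Cntn6. Cntn4, a contactin, averaged 97.7 ± 40.9 in regenerating and 129 ± 102 in non-regenerating neurons, against 256 ± 89.6 in traced neurons (signal, SD). It was 1.28 lower in regenerating than in traced neurons (SE 0.32, limma adjusted p = 0.0684). Ank1, an ankyrin of the kind that binds L1 family proteins, averaged 67.8 ± 30.2 and 80.7 ± 46.4, against 160 ± 35.0. Its difference was -1.12 (SE 0.30, limma adjusted p = 0.0694). Cntn3 was 1.24 lower (SE 0.42) and Cntn6 0.85 lower (SE 0.30), with limma adjusted p = 0.099 and 0.111.

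Non-regenerating against traced, 22 partners were higher and 26 lower (median -0.06), with 1 higher and 3 lower at an unadjusted p under 0.05, where 2.68% of all probe sets were higher and 7.61% lower. The 4 were Ank1 at -0.97, Cntn4 at -1.09, Nrxn3, a presynaptic neurexin, at -0.63, and Ctnna1, an alpha catenin that joins cadherins to actin, at 0.64. Their limma adjusted p was 0.472 in each case.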

How the data were processed

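The authors deposited 1 table of linear signal intensity values, 1 per probe set and array, from GCOS (Affymetrix GeneChip Operating Software) per the submitters' processing notes, with the version and settings not given in the sources used here. The signal intensity values were used as deposited, since the trimmed mean of every array was 200 to 200.1. No pair of arrays was identical. Probe sets were named from the platform's probe-to-gene table, and the symbols of all 10 genes were found unchanged in RefSeq by Entrez number.

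Before log2, 16 was added to each signal (their 25th percentile). Tests left out 57 control probe sets and 12417 dim ones, whose mean log2 signal was under the 40th percentile (a signal of 34), and kept 18625. A fold change is on the log2 scale of signal plus 16, which understates the change of dim probe sets. Comparisons were fitted in R 4.3.3 with limma 3.58.1 (eBayes with trend), with Benjamini-Hochberg adjustment over the 18625 and calls at an adjusted p under 0.05. Animals paired regenerating and non-regenerating samples by the names in the labels. Deviations from the group means correlated within animals with r = 0.34 to 0.71. Exact permutation tests of single genes were two-sided.

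The groups that the labels name were used for all 17 arrays. Named were all tested member probe sets, the 4 partners with the smallest p per comparison, and the most alike genes by Pearson r. The members and lists were chosen with earlier results of these data known. The fits were tested on simulated data. Other settings tried were quantile and median scaling, another offset and filter, no trend, array weights, no block, a 3 prime covariate, other sets of animals and each array left out. Likeness without 2 arrays, and overlap without each array, were chosen after seeing the data. Precision is limited by the number of arrays.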

Additional observations from a re-analysis of the deposited data

Results flagged for a closer look

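In 4 of 32 groups of 7 samples, 1 sample lay farther from its neighbours than Dixon's 95% limit allows, a limit that chance passes in about 1 of 20 groups. Ncam2 in regenerating MOON265 had a signal of 58.7, against 116.0 to 150.7 in the other regenerating samples. Nrcam 1377001_at in regenerating MOON265 had 1083.1, against 638.0 to 795.2. Alcam in non-regenerating MM17 had 347.6, against 856.9 to 1244.3 in the other non-regenerating samples. Ncam1 1368320_at in non-regenerating MM17 had 87.5, against 32.9 to 46.5. The array of non-regenerating MM17 is 1 of the 2 that stood apart over all probe sets. Without rat MM17 the within-animal difference of Alcam was -0.014, against 0.22 with all rats. That of Ncam1 1368320_at was -0.30 without it, against -0.40. The cause of the flagged values was not tested.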

How the results depend on the processing

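The count of adhesion probe sets past the threshold was 0 in each comparison and stayed at 0 under every alternative but these. Array weights gave 3 for regenerating against traced neurons (L1cam -0.96, Ncam2 -0.68 and Ncam1 1379389_at 0.67, among 3131 calls in all) and 2 for non-regenerating against traced neurons (L1cam -0.94 and Ncam2 -0.60, among 2440). Leaving out each array in turn gave 0 to 1 for regenerating against traced neurons, with L1cam called without regenerating MM17 and at -1.27 to -0.82 over those fits. Over all probe sets the 40 calls of that comparison became 1 without traced MM15 and 1504 without regenerating MM17. Over all settings they ranged from 1 to 3131, from 2 to 2440 for non-regenerating against traced neurons (8 as reported) and from 0 to 4 for regenerating against non-regenerating neurons (3 as reported). Without the replicate block, regenerating against non-regenerating neurons again gave 0 adhesion calls, so the pairing changed no call, and 0 of all probe sets passed, against 3 with it.

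Signs of uncalled values that turned by more than 1 SE of the reported value were as follows, and the cause was not tested. A further 21 values crossed 0 within 1 SE for regenerating against non-regenerating, 27 for non-regenerating against traced and 21 for regenerating against traced neurons, and are not listed. In the MOON animals alone, regenerating against non-regenerating, the values were L1cam 0.53, Nfasc 1374164_at 0.24, Chl1 -0.11, Cntn1 -0.19, Cdh2 1368642_at -0.31, Ncam1 1377368_at -0.35, Nfasc 1380917_at -0.36, Nrcam 1377001_at -0.16 and Nrcam 1392734_at -0.078. Quantile normalization gave Nfasc 1374164_at 0.0071 there. It also gave Cntn1 0.27 and Cntn2 0.32 for regenerating against traced neurons, and Ncam1 1368320_at 0.18, Cntn1 0.17 and Cntn2 0.19 for non-regenerating against traced neurons. Centring on the median gave Nfasc 1374164_at 0.29, Cntn1 0.29 and Cntn2 0.33 for regenerating against traced neurons. For non-regenerating against traced neurons it gave Ncam1 1368320_at 0.18, Cdh2 1368642_at 0.30, Cntn1 0.20 and Cntn2 0.20. With 3 prime bias as a covariate, regenerating against traced, Alcam was -0.44, Nrcam 1377001_at -0.40 and Nrcam 1392734_at -0.10. Array weights gave Alcam -0.079 and Nrcam 1377001_at -0.079 for regenerating, and Nfasc 1380917_at -0.052 and Nrcam 1392734_at -0.016 for non-regenerating against traced neurons.

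Without non-regenerating MM17 and traced MM15, regenerating against non-regenerating neurons gave Cdh2 1368642_at -0.10, Alcam -0.014 and Nrcam 1377001_at -0.029. Regenerating against traced neurons then gave Alcam -0.078, Nfasc 1374164_at 0.25 and Nrcam 1377001_at -0.041. Leaving out single arrays or animals, regenerating against non-regenerating, spanned -0.014 to 0.31 for Alcam, -0.10 to 0.15 for Cdh2 1368642_at and -0.029 to 0.28 for Nrcam 1377001_at, each lowest without MM17. Regenerating against traced it spanned -0.078 to 0.69 for Alcam, -0.29 to 0.25 for Nfasc 1374164_at and -0.041 to 0.43 for Nrcam 1377001_at. Non-regenerating against traced it spanned -0.29 to 0.48 for Alcam and -0.24 to 0.32 for Chl1. These 5 turned by more than 1 SE without traced MM15. L1cam and Ncam2 kept their direction against traced neurons under all 22 alternatives of each comparison.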

Other observations

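The remaining marker lists showed no call in any of the 3 comparisons. Regenerating against traced neurons, the median log2 differences were -0.10 for 6 oligodendrocyte markers, -0.12 for 4 oligodendrocyte precursor markers, 0.48 for 4 Schwann cell markers, -0.29 for 7 endothelial markers, -0.07 for 6 fibroblast and meningeal markers and -0.55 for 3 blood markers. Regenerating against non-regenerating neurons, the medians of the same lists were -0.03, 0.05, 0.15, 0.07, 0.19 and -0.20.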
